A study of Mus musculus with 9 samples.

Results

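The retinas of control mice were profiled on 3 arrays of the 9 in the series, and the description below covers the signal of each gene and its spread over those 3 control pools. The arrays were chosen by their label. Each pool held 4 retinas from 4 male C57BL/6 mice, which were 6 weeks old when bought, and was taken 7 days after an intravitreal injection of 1 μL. The labels name the injected vehicle as PBS, whereas the methods of the study name an IgG1 isotype antibody in PBS, so the samples are called control pools here and the injection itself cannot be told apart from the untreated state. The other 6 arrays came from retinas given an antibody against complement component 5 and were not analysed here. The methods describe the pools as biological replicates. Each pool averages several animals, so the differences between single mice are not visible.

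The retina is a layered sheet of neurons in which rods and cones turn light into an electrical signal, bipolar cells carry it inward and ganglion cells send it to the brain. Horizontal and amacrine cells shape that signal sideways, Müller glia span the whole thickness, and microglia and blood vessels make up a small remainder. In mice, rods outnumber every other retinal cell type. The lens, the pigment epithelium and the muscles that move the eye lie next to the retina but are separate tissues.

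Values were log2 signals, so that a difference of 1 unit is a 2-fold difference. Of 41345 probe sets, 23521 named exactly 1 gene and were described, 1820 named several genes and 16004 named none. The 23521 probe sets covered 22180 genes, and each gene was taken by its brightest probe set. Mean signals ran from 1.76 to 13.51 with a median of 6.23 and quartiles at 4.97 and 7.72. Array signal also depends on how well each probe binds its target, so the order of genes below is an order of brightness and not of RNA amount. Among the 1082 genes with several probe sets, the brightest and the dimmest probe set of a gene differed by a median of 1.68 and by 3.05 at the third quartile. Since the deposited values carry no detection call, a reference level was set at 5.67, the 95th percentile of the means of 1108 probe sets for olfactory receptors, a large family of odour sensors used mainly in the nose. All 3 pools lay above this level for 13763 probe sets (58.5% of the 23521) and for 13211 genes (59.6% of the 22180).

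**Figure D1:**
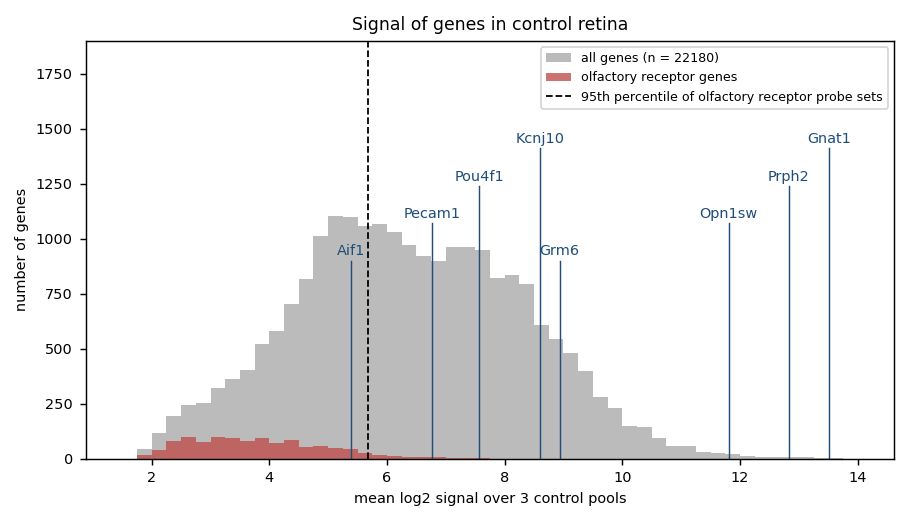
Number of genes by mean log2 signal over the 3 control pools (x axis, log2 units) for all 22180 genes and for olfactory receptors, with 8 cell type markers drawn as lines and the reference level of 5.67 dashed. Gnat1 and Prph2 stand at the bright end, and Aif1 alone of the 8 markers lies left of the dashed line.

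By mean signal over the 3 pools, genes of rod phototransduction and of the mitochondrial genome were the brightest in control retina. Gnat1, the transducin subunit through which rods pass on the capture of light, ranked first with signals of 13.49, 13.52 and 13.52 in pools 1, 2 and 3 (mean 13.51, SD 0.017, n = 3). Gnb1, its partner in the transducin complex that is also used in many other cells, followed at 13.46, 13.47 and 13.51. The pools were nearly level for both genes. Reep6, a membrane protein needed by rods, measured 12.98, 13.01 and 13.01. Prph2, which holds the rims of the photoreceptor discs in shape, measured 12.85, 12.83 and 12.81. Rbp3, the protein that ferries retinoids between photoreceptors and pigment epithelium, measured 12.67, 12.69 and 12.69. For each of these 3 genes the difference between the highest and the lowest pool was at most 0.05. The ranking by mean hides single pools: Cryaa, a lens gene, ranked 84 with 12.93, 13.20 and 8.56. In pools 1 and 2 Cryaa was brighter than Prph2 and Rbp3.

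Genes carried by the mitochondrial genome made up 9 of the 20 brightest genes. They encode subunits of the respiratory chain, and their mean signals ran from 12.70 for COX3 to 13.44 for ND4, with ND3 at 13.30, ND5 at 13.20, COX1 and ND1 at 13.15, CYTB at 13.14, ND2 at 12.86 and ND4L at 12.77 between them. ND6, which also encodes a subunit of the first respiratory complex, was the dimmest of the 10 mitochondrial genes measured, with 9.12, 9.28 and 9.14. The 10 had a median signal of 13.14 and no range above 1. Nuclear genes of the respiratory chain were dimmer as a class, with a median of 7.99 over 78 genes.

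The other genes among the 20 brightest had general or neuronal roles. Rn7sk, a small nuclear RNA that restrains transcription elongation, had a mean of 13.31. Snap25, a protein of the synaptic vesicle fusion machinery, measured 12.92, 12.90 and 13.02. Gapdh, an enzyme of glycolysis, had a mean of 12.81. Malat1, a long RNA kept in the nucleus, reached 12.78, Rps6, a ribosomal protein, 12.76, and Rtn3, a protein of the endoplasmic reticulum, 12.59. None of these genes stood apart in any pool. Other probe sets for the same gene were not always as bright: Gapdh had probe sets with means of 12.81, 12.63 and 7.06, and Malat1 had a second at 9.08.

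The markers of neurons and glia fitted the retinal label of the samples, and the marker of microglia was weak. Opn1sw, the short-wavelength cone opsin, measured 11.74, 11.85 and 11.84 (mean 11.81, SD 0.063, n = 3). Grm6, the glutamate receptor of ON bipolar cells, measured 8.81, 8.98 and 9.01 (SD 0.111), while its second probe set had a mean of 5.99. Kcnj10, the potassium channel of Müller glia, measured 8.62, 8.60 and 8.61. All 3 lay above the reference level in every pool. Pou4f1, a transcription factor of ganglion cells, measured 7.58, 7.42 and 7.71. Pecam1, an adhesion protein of the endothelium, measured 6.88, 6.71 and 6.71. Aif1, a calcium-binding protein of microglia, measured 5.38, 5.38 and 5.40 and so lay below the reference level of 5.67 in all pools.

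All 26 gene lists are shown in the plot of list members by signal. Together they held 377 symbols, of which 344 were measured by a probe set naming that gene alone, and the remainder were not analysed here. Over all genes the median signal was 6.29 and the median range between the highest and lowest pool was 0.16. A range above 1 was found for 0.843% of all genes, and 59.6% of all genes lay above the reference level in all 3 pools. Those shares are the background for the counts of list members below. The lists were chosen with earlier results of these data known. A count that departs from the background is therefore a description and not independent support.

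**Figure D2:**
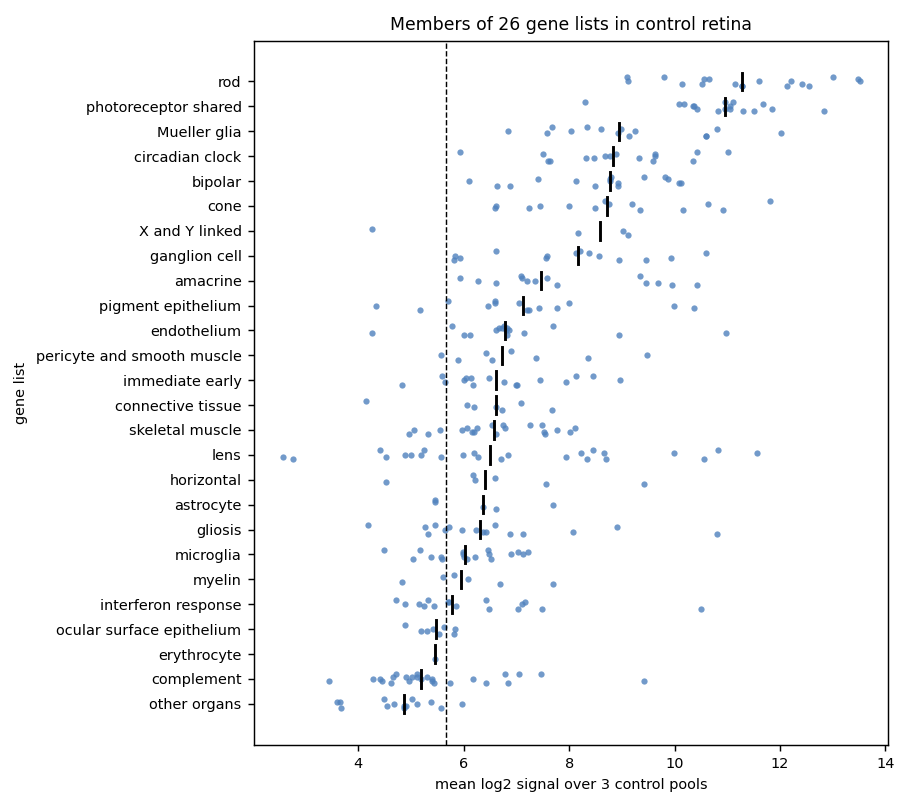
Mean log2 signal over the 3 control pools (x axis) of every measured member of 26 gene lists (rows), with the list median as a black bar and the reference level of 5.67 dashed. The rod list has the highest median (11.28) and the list of genes from other organs the lowest (4.86).

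Photoreceptor genes were bright and steady. All 18 measured rod genes lay above the reference level, with a median signal of 11.28 and a median range of 0.05. Sag, the arrestin that ends the rod response, measured 12.55, 12.55 and 12.56. Pde6b and Pde6g, subunits of the phosphodiesterase that breaks down cyclic GMP in light, had lowest values of 12.38 and 12.20, and Pde6a, the partner of Pde6b, was listed at the same value of 12.13 in all 3 pools. Nrl, the transcription factor that sets rod fate, had the widest range of the rod list at 0.39, with 9.78, 9.99 and 9.60. None of the 18 rod genes had a range above 1. Genes shared by rods and cones had a median of 10.96 over 17 genes, all above the reference level. Unc119, which carries lipid-modified proteins to the outer segment, measured 11.87, 11.81 and 11.87, Pdc, which binds transducin subunits, 11.68, 11.67 and 11.65, and Crx, the homeobox factor of photoreceptors, 10.06, 10.07 and 10.09. Fscn2, an actin-bundling protein, was the dimmest of this list at 8.34, 8.33 and 8.25.

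Cone genes were also above the reference level in all 14 cases, with a median of 8.71 and a median range of 0.17. Gnb3, the cone transducin beta subunit, measured 10.83, 10.84 and 11.06. Opn1mw, the medium-wavelength opsin, measured 10.56, 10.67 and 10.69. The dimmest cone gene was Gngt2, the cone transducin gamma subunit, with 6.64, 6.54 and 6.62. No cone gene had a range above 1, while pool 1 was the lowest for 10 of the 14, against 34.3% of all genes.

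Inner retinal neurons gave intermediate signals. All 16 measured bipolar genes exceeded the reference level, with a median of 8.78, and the brightest was Cabp5, a calcium-binding protein of bipolar cells, at 10.08, 10.11 and 10.19. Nyx, the nyctalopin that anchors the ON bipolar channel complex, was the dimmest at 6.12, 6.01 and 6.17. Amacrine genes had a median of 7.47, with 13 of 14 above the level in every pool. Calb2, or calretinin, measured 10.35, 10.42 and 10.51, Pax6, a homeobox factor of inner retinal neurons, 9.84, 10.13 and 9.89, and Gad1, which makes the transmitter GABA, 7.09, 7.34 and 7.61. Th, the enzyme that marks dopaminergic amacrine cells, measured 6.05, 5.66 and 6.06 and fell just short in pool 2. The 6 horizontal cell genes had a median of 6.40, with Calb1, or calbindin, at 9.31, 9.51 and 9.42 and Gja10, a connexin, at 4.64, 4.44 and 4.50. Ganglion cell genes had a median of 8.16. Nefl, the light neurofilament, measured 10.53, 10.62 and 10.64, Stmn2, a growth-associated protein of neurons, 9.91, 9.78 and 10.10, and Opn4, the melanopsin of light-sensitive ganglion cells, 5.94, 5.67 and 5.86. No member of these 4 lists had a range above 1, and their median ranges lay between 0.13 and 0.21. Pool 3 was the highest for 12 of 16 bipolar, 10 of 14 ganglion cell, 7 of 14 amacrine and 2 of 6 horizontal cell genes. Over all genes, 13.3% ran from pool 3 over pool 1 to pool 2 and 16.2% from pool 3 over pool 2 to pool 1. Pool 1 was the lowest for 10 of 14 amacrine genes, against 34.3% of all genes.

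Glial and vascular genes covered a wide span of signals. Müller glia genes had a median of 8.95, with all 14 above the reference level. Glul, the glutamine synthetase that clears glutamate, measured 12.02, 12.02 and 12.03. Vim, an intermediate filament that is also made by lens cells, measured 10.91, 11.10 and 10.42. The pools were level for Glul, whereas Vim was lowest in pool 3. Microglial genes had a median of 6.03, and 12 of 18 lay above the level, against 59.6% of all genes. Cx3cr1, the fractalkine receptor, measured 7.28, 7.29 and 7.11, C1qb, a subunit of the first complement component, 7.10, 6.96 and 7.03, and Ptprc, a leukocyte phosphatase, 4.66, 4.40 and 4.39. Endothelial genes had a median of 6.78, with 14 of 16 above the level. Slc2a1, a glucose transporter that photoreceptors and pigment epithelium also use, was the brightest of them at 10.99, 11.03 and 10.92, and Kdr, a VEGF receptor, measured 8.93, 9.04 and 8.89. In whole tissue, fewer cells of a type and less RNA per cell cannot be told apart.

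Genes of pericytes and smooth muscle had a median of 6.72, and all 8 were highest in pool 1, against 30.5% of all genes, with a median range of 0.33. Rgs5, a regulator of G protein signalling in pericytes, measured 9.54, 9.35 and 9.52. Des, or desmin, an intermediate filament of all muscle, measured 8.61, 5.82 and 6.29 and was the only member with a range above 1. Among astrocyte genes, 3 of 5 lay above the level, against 59.6% of all genes, with Gfap, a glial filament, at 6.55, 6.23 and 6.34. Gja1, or connexin 43, which lens and vessel cells also make, measured 7.53, 8.53 and 7.03 and was the only astrocyte gene with a range above 1.

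Checks of the tissue label with genes of other organs gave low values. Of 14 genes made mainly by liver, kidney, lung, gland, testis or pituitary, only Apoa2 lay above the reference level, at 5.97, 6.01 and 5.94. Of 8 genes of the ocular surface epithelium, only Krt12, the keratin of corneal epithelium, did so in every pool, at 5.92, 5.86 and 5.71. Aldh3a1, a dehydrogenase of the cornea, measured 6.10, 6.16 and 5.19, and 4, 3 and 1 members of this list exceeded the level in pools 1, 2 and 3. Slc4a1, the anion exchanger of red cells, was the only erythrocyte gene measured here and lay below the level, at 5.28, 5.66 and 5.44. The Y-linked genes Eif2s3y, Uty and Kdm5d had lowest values of 9.05, 9.01 and 8.05, whereas Xist, which silences an X chromosome in females, measured 4.16, 4.30 and 4.30. These values match the male sex given for the mice.

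The 3 pools were close over most of the array, and 2 of the 26 lists had a median range above 1. Other lists also exceeded the median range of 0.16 over all genes. Connective tissue genes had 0.55, and the pigment epithelium and the pericyte and smooth muscle lists had 0.33 each. Pool medians were 6.25, 6.23 and 6.22, but the normalization forces arrays to 1 distribution, so this closeness was largely set in advance. The values of different pools correlated across probe sets at r between 0.992 and 0.994, which describes probe sets measured together and not independent replicates. The median SD was 0.084, and the 90th percentile of the SD was 0.223. The median ratio of the highest to the lowest pool was 1.12-fold. A range above 1 was found for 206 of 23521 probe sets (0.876%), or for 187 of 22180 genes (0.843%), and 31 of those genes differed by over 5-fold. Over 2 pools the count of probe sets was 74 without pool 1, 135 without pool 2 and 122 without pool 3. The lists of lens and of skeletal muscle genes were the 2 with a median range above 1, and without pool 1 or without pool 3 only 1 list had it. They supplied 34 of the 187 genes, and 146 of the 187 belonged to no list. All counts and values for pools are descriptions, because 3 samples of 1 group allow no test. This also holds for the list counts below, since the lists were chosen with earlier results of these data known.

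**Figure D3:**
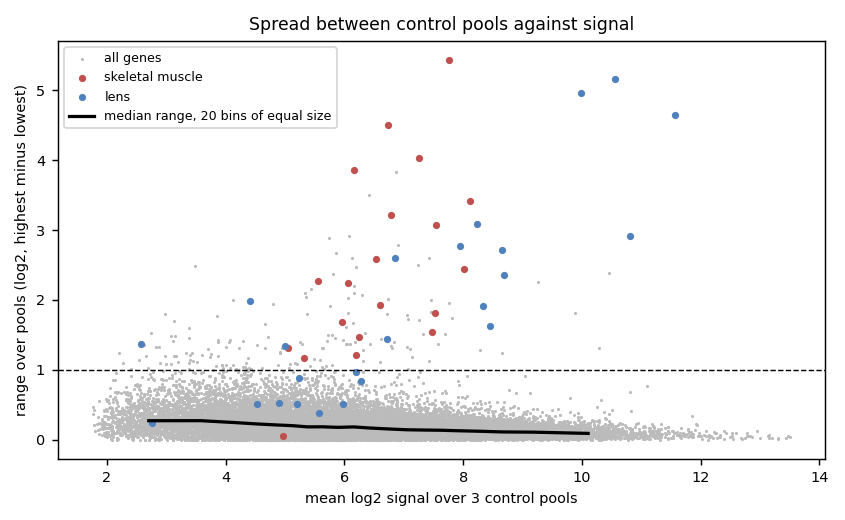
Range over the 3 control pools (y axis, highest minus lowest log2 signal) against mean log2 signal (x axis) for all genes, with lens and skeletal muscle genes coloured, the median range in bins of signal as a black line and a range of 1 dashed. Atp2a1 (5.44) and Cryba1 (5.16) lie highest, while the median of all genes is 0.16.

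Lens genes had lower signals in pool 3 than in pools 1 and 2. The crystallins that fill lens fibre cells led this pattern, with Cryaa, the alpha crystallin that is also a chaperone, at 12.93, 13.20 and 8.56. Cryba1, a beta crystallin, measured 11.98, 12.44 and 7.28, so that the highest pool was 35.8-fold above the lowest. Crygs, a crystallin of the gamma family, measured 11.17, 11.88 and 6.92, a 31.3-fold difference. Pool 3 was the lowest for all 3 genes, and pool 2 the highest. Cryab, an alpha crystallin also made in glia and muscle, measured 11.59, 11.88 and 8.97. Crybb1 measured 9.18, 9.76 and 7.04, and Cryba2 measured 8.51, 9.05 and 6.29. Mip, the water channel of lens fibres, measured 8.68, 9.54 and 6.45.

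Most of the remaining lens genes were also lowest in pool 3. Of 24 measured genes, 23 were lowest in pool 3, against 28% of all genes, and 20 were highest in pool 2, against 30.1%. A range above 1 was found for 15, against 0.843% of all genes. With pool 3 left out, 2 of the 24 did. The median deviation from each gene's own mean was 0.32 in pool 1, 0.58 in pool 2 and -0.95 in pool 3. Summed on the linear scale, the signals of the 24 genes came to 20757, 27595 and 2374, an 11.6-fold difference between highest and lowest. That sum is weighted to the brightest crystallins, and the median range of the list was 1.53. Above the reference level were 16 genes in pool 1, 16 in pool 2 and 13 in pool 3. For all genes only the share above it in all 3 pools was counted, at 59.6%. Cryge, a gamma crystallin, was dim in every pool, at 2.81, 2.86 and 2.62. Grifin, a galectin-related protein of the lens, measured 9.03, 9.70 and 7.34, and Bfsp1, a subunit of the beaded filament, 7.00, 7.28 and 5.85. Crygf, at 3.43, 2.07 and 2.22, was the only gene that was not lowest in pool 3, and it lay below the reference level in every pool. The second probe sets were dimmer and kept pool 3 lowest, at 6.98, 6.96 and 5.56 for Cryaa and at 6.69, 6.75 and 6.33 for Mip. Crystallin genes of the gamma family are near copies of each other, so their separate signals are uncertain.

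Skeletal muscle genes were high in pool 1 and low in pool 2. Atp2a1, the calcium pump of fast muscle, measured 10.60, 5.16 and 7.53. Myh4, a fast myosin heavy chain, measured 9.32, 4.82 and 6.07, and Ttn, the giant spring protein titin, 9.54, 5.51 and 6.72. Pool 2 lay below the reference level for all 3 genes, so no fold is given for them. Myh1, another fast myosin, measured 8.36, 4.50 and 5.63, and Neb, the thin-filament protein nebulin, 8.71, 5.49 and 6.15. Tnnt3, a troponin of fast fibres, measured 10.08, 6.66 and 7.61, and Acta1, skeletal actin, 9.32, 6.25 and 7.07. Pvalb, or parvalbumin, which also occurs in retinal neurons, measured 8.31, 6.77 and 7.36. Myh13, the myosin particular to extraocular muscle, measured 6.92, 4.65 and 5.08 and lay above the reference level in pool 1 only.

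Of the 20 muscle genes, 19 were highest in pool 1, against 30.5% of all genes, and 18 were lowest in pool 2, against 29.5%. In addition, 19 had a range above 1, against 0.843% of all genes. With pool 1 left out, 5 of the 20 did. Above the reference level were 19 genes in pool 1, 8 in pool 2 and 13 in pool 3. As for the lens list, the share of all genes was counted only over all 3 pools (59.6%). The median deviation was 1.31 in pool 1, -0.89 in pool 2 and -0.46 in pool 3, and the summed linear signals were 8116, 1100 and 1798. The exception was Myh8, the perinatal myosin, which measured 4.92, 4.98 and 4.98 by its brighter probe set and 5.49, 4.38 and 4.55 by the other. For Ckm, the muscle creatine kinase, the brighter probe set gave 7.80, 5.21 and 6.59 and the other 5.79, 5.93 and 5.41, so the order of the pools rests on the probe set. Myosin heavy chain genes share sequence, and their signals are uncertain in the same way.

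**Figure D4:**
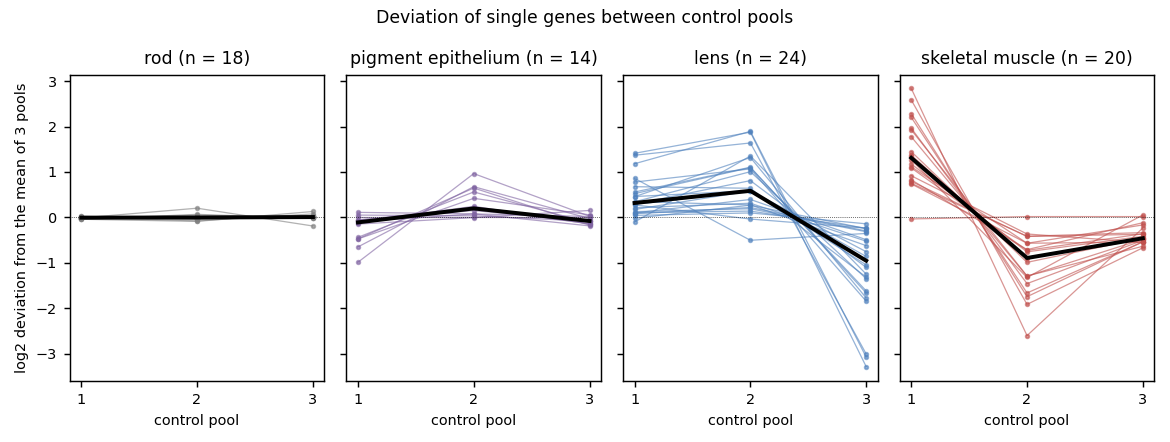
Deviation of each gene from its mean over the 3 control pools (y axis, log2) in pools 1, 2 and 3 (x axis, pools have no order) for rod, pigment epithelium, lens and skeletal muscle genes, with thin lines joining the values of a gene and the black line the list median. Rod genes stay near 0, lens genes are lowest in pool 3 (median -0.95) and muscle genes highest in pool 1 (median 1.31).

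Genes of melanin formation ran from pool 2 over pool 3 to pool 1. Dct, an enzyme of melanin synthesis, measured 6.78, 8.73 and 7.79, Tyrp1, its relative, 6.40, 7.73 and 7.03, and Mlana, a melanosome protein, 6.13, 7.25 and 6.43. These 3 were the pigment epithelium genes with a range above 1, out of 14, against 0.843% of all genes. Without pool 1 none of them had such a range (a count of 0). Pmel, which forms the melanosome fibrils, measured 6.77, 7.66 and 7.30, and Tyr, the first enzyme of melanin synthesis, 3.90, 4.90 and 4.22. Genes of the visual cycle, which pigment epithelium and Müller glia run to recycle retinoids, differed less. Rpe65, the retinoid isomerase, measured 7.94, 8.19 and 7.85, Rgr, a retinal opsin, 9.87, 10.19 and 9.92, and Ttr, a carrier of thyroid hormone and retinol, 10.27, 10.61 and 10.22. Pool 2 was the highest for these as well, while Rpe65 and Ttr were lowest in pool 3. Mitf, a transcription factor of pigment cells, measured 6.44, 6.58 and 6.74, Lrat, a retinol-esterifying enzyme, 6.56, 6.53 and 6.26, and Best1, an anion channel, 5.16 in every pool. Over all 14 genes, pool 2 was the highest for 10, against 30.1% of all genes, and pool 1 the lowest for 8, against 34.3% of all genes. Whether lens, muscle or pigment tissue was carried into the pools was not tested.

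Beside the lists, other genes followed the same orders, and the ones named here were among the 20 genes with the largest range or were chosen after their values were seen. Actc1, cardiac actin that muscle makes too, measured 9.08, 5.24 and 6.29, Myot, a protein of the muscle Z disc, 8.42, 4.92 and 5.93, and Mybpc1, a myosin-binding protein of muscle, 7.55, 4.66 and 5.00. Trdn, triadin of the calcium release complex, measured 7.43, 4.76 and 5.39. These followed the order of the muscle list. Igfbp7, a secreted binding protein, measured 10.95, 11.41 and 9.03, Nid1, a basement membrane protein, 7.70, 8.25 and 5.75, and Cd24a, a surface glycoprotein, 9.71, 10.16 and 7.90, in the order of the lens list. Gpnmb, a melanosome protein, measured 6.62, 8.14 and 7.22, in the order of the pigment genes.

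Counting by the pool that stood apart, pool 1 lay over 1 unit above both other pools for 66 probe sets (0.281% of 23521), which were 65 genes with 17 of the muscle list among them. Pool 1 lay over 1 unit below both for 11 probe sets (0.0468%). Pool 2 lay above both for 4 probe sets (0.017%), those of Cryba4, Gja1, Scel and Penk, and below both for 11 (0.0468%). Pool 3 lay above both for 1 probe set (0.00425%), AF357399, and below both for 32 (0.136%), which were 28 genes with 13 of the lens list among them. Penk, the precursor of enkephalin, measured 8.33, 9.44 and 8.19. Among the 187 genes with a range above 1, 74 ran from pool 1 over pool 3 to pool 2 and 47 from pool 2 over pool 1 to pool 3, whereas each of the 6 possible orders held between 12.4% and 16.2% of all genes and 14.6% had tied values. Of the 74, 18 were muscle genes, and of the 47, 13 were lens genes.

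**Figure D5:**
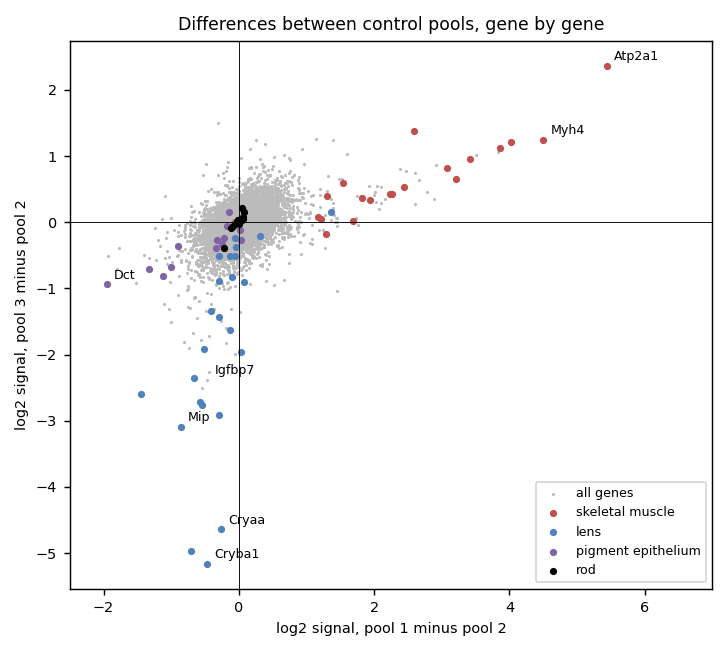
Log2 signal of pool 1 minus pool 2 (x axis) against pool 3 minus pool 2 (y axis) for each gene, with skeletal muscle, lens, pigment epithelium and rod genes coloured. Muscle genes spread to the right, up to Atp2a1, lens genes spread downward, down to Cryba1, pigment genes lie to the lower left and rod genes sit near 0.

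Promoters are shown for genes of the lens and skeletal muscle lists, with a photoreceptor gene for comparison. Whether promoter sequence bears on the differences between pools was not tested. Sequences are the 250 bases before the start site from RefSeq (build GRCm38.p6), written on the strand of the gene. Capitals mark a match on either strand to the CRX core TAATCC in Sag, the MAF half-site TGCTGA in Cryaa, Cryba1 and Crygs, the E-box CAGCTG in Atp2a1, and in Myh4 the E-box, the MEF2 consensus and the SRF CArG box. Other matches to these motifs are left in lower case, namely a MAF half-site in Sag and Atp2a1, an E-box in Sag, Cryaa and Cryba1, and a CRX core in Crygs. In Cryaa the E-box overlaps the MAF half-site. Sag is at chr1:87803430-87803679 (+), Cryaa at chr17:31677681-31677930 (+), Cryba1 at chr11:77725294-77725543 (-), Crygs at chr16:22811411-22811660 (-), Atp2a1 at chr7:126463074-126463323 (-) and Myh4 at chr11:67237562-67237811 (+).
Sag: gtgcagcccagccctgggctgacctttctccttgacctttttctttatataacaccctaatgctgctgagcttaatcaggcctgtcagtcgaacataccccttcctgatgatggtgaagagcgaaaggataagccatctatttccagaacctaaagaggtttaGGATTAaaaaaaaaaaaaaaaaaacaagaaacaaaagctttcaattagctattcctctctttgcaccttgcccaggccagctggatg
Cryaa: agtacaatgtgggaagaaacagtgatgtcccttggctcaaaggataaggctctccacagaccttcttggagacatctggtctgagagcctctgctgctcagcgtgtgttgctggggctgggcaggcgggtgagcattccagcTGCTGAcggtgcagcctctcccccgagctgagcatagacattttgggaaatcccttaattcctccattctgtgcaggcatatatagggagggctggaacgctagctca
Cryba1: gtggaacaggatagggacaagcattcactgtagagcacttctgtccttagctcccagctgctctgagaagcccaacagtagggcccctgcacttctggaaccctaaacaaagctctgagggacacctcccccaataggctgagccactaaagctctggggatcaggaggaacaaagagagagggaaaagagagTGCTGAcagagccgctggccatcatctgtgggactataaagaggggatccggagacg
Crygs: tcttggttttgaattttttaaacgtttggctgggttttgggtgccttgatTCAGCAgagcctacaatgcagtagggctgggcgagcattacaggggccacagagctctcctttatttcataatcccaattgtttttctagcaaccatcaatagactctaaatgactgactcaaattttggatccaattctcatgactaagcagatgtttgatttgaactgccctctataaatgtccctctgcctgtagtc
Atp2a1: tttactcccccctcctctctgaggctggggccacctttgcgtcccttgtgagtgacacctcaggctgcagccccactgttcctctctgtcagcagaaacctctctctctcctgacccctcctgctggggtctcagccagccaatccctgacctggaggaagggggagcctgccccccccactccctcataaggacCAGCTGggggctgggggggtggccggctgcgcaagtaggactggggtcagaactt
Myh4: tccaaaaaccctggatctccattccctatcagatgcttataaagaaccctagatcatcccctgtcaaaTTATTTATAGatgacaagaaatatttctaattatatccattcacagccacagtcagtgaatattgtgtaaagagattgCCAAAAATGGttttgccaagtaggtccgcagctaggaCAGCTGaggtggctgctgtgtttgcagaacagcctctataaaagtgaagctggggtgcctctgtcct

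Shares were counted over promoters of 300 bases, the 250 before and 50 after the start. The MAF half-site TGCTGA was found in 14 of 24 lens promoters (58.3%), against 19.5% of all 32851 promoters. The CRX core TAATCC was found in 15 of 48 photoreceptor promoters (31.3%), against 7.06% of all. In muscle, 7 of 17 promoters (41.2%) held the E-box CAGCTG against 16.3% of all, 5 (29.4%) held the MEF2 consensus against 3.19%, and 3 (17.6%) held the SRF CArG box against 1.63%. The same motifs were also found in other lists. The E-box was in 33.3% of lens and 20.8% of photoreceptor promoters, the MAF half-site in 29.4% of muscle and 16.7% of photoreceptor promoters, and the CRX core in 8.33% of lens promoters. The motifs were chosen with the gene lists known, a match is a description only, and no test was made. Prph2, at 12.85, 12.83 and 12.81, had no match to any of these letters in its 250 bases.

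The SD between pools was smaller for brighter probe sets. In 5 groups of probe sets of equal size, ordered by signal, the median SD was 0.133, 0.103, 0.0898, 0.0717 and 0.0555 from dimmest to brightest, and the share with a range above 1 was 1.64%, 0.765%, 0.978%, 0.638% and 0.361%. The dimmest genes with the largest ranges included Gm14925, a pseudogene, at 4.80, 3.34 and 2.30 and Ppp1r3a, a muscle glycogen regulator, at 5.33, 3.33 and 3.74. Both lay below the reference level in every pool. At the steady end, 447 probe sets (1.90%) held the same value in all 3 pools. The brightest of these were Pde6a at 12.13, Tnpo1, a nuclear import receptor, at 11.31 and Ddx1, an RNA helicase, at 10.77. The next were Vezf1, Pdia3, Nbea, Kpna2, Birc6, Immt and Ryk, with values from 10.33 down to 9.75. An identical value in 3 pools is a property of the deposited table, and its origin was not tested.

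Genes of the complement system, the target of the treated arms, gave mostly low signals in control retina. Of 25 measured complement genes, 8 lay above the reference level in every pool, against 59.6% of all genes, and the list median was 5.19. Cd59a, which blocks the membrane attack complex, measured 9.36, 9.32 and 9.56. Cfp, or properdin, which stabilises the alternative convertase, measured 7.48, 7.40 and 7.55. Serping1, the inhibitor of the classical pathway proteases, measured 7.34, 6.96 and 6.82, and C4b, a component of the classical pathway, 6.65, 6.51 and 6.14. Pool 1 was highest and pool 3 lowest for Serping1 and C4b. Hc, the gene of complement component 5, measured 4.43, 4.47 and 4.47, and C5ar1, the receptor of its fragment C5a, 4.86, 4.96 and 5.04. Both lay below the reference level, so a low signal and none could not be told apart at these probe sets. C5ar2, the other C5a receptor, lay above it at 6.19, 6.12 and 6.23. No complement gene had a range above 1.

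Glial stress and interferon genes showed no uniform level. Of 16 gliosis genes, 11 lay above the reference level, against 59.6% of all genes. Serpina3n, an acute-phase inhibitor, measured 8.27, 8.43 and 7.52. Stat3, a transcription factor of the reactive glial response, measured 8.93, 8.83 and 8.99. Of 16 interferon response genes, 8 lay above the level, with B2m, the invariant chain of class I molecules, at 10.63, 10.46 and 10.42. Neither list stood far from the share of all genes. The highest value was in pool 1 for 13 of the 16, against 30.5% of all genes, with a median range of 0.23. The circadian list lay above the level in all 16 cases, with Rorb, a nuclear receptor of photoreceptor development, at 11.02, 10.97 and 11.03 and Clock, a core clock factor, at 10.47, 10.31 and 10.51.

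By gene class, protein-coding genes had a median signal of 6.58 over 18964 genes, and 64.3% of them lay above the reference level. Long non-coding RNAs had a median of 5.13 over 1926 genes with 29.0% above the level, and microRNA precursors 4.98 over 478 genes with 32.8% above it. Small nucleolar RNAs had a median of 6.94 over 80 genes. Keratins, collagens and crystallins had medians of 5.33, 6.04 and 7.40. The crystallins had 12 of 16 members with a range above 1, against 0.843% of all genes. The collagens had 0 of 44 and the keratins 0 of 49, which is near that share.

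The precursors Mir182, Mir96 and Mir183 form a cluster that is known for its expression in sensory cells of the eye and ear. They were chosen after their values were seen, and their signals were weak. Mir182 measured 6.25, 6.76 and 6.49, Mir96 5.38, 5.80 and 5.43 and Mir183 4.65, 4.33 and 4.38. Only Mir182 lay above the reference level in all pools. Of the 478 precursors, 426 matched the RefSeq sequence table (build GRCm38.p6). Their mature forms are shown because they carry closely related seeds (bases 2 to 8, in capitals), with miR-182-5p at chr6:30165962-30165986 (-), miR-96-5p at chr6:30169506-30169528 (-) and miR-183-5p at chr6:30169711-30169732 (-).
miR-182-5p: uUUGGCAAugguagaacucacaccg
miR-96-5p: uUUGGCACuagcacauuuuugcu
miR-183-5p: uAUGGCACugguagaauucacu

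The signals belong to the precursor probe sets and do not measure the mature forms. The seeds of miR-182-5p and miR-96-5p share their first 6 bases. The brightest precursor probe sets were those of Mir449b at 12.50, 12.48 and 12.51 and Mir5099 at 12.03, 12.08 and 12.15.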

How the data were processed

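RNA from the control retina pools was read on Affymetrix Mouse Gene ST arrays. The methods name version 1.0, whereas the probe set numbers follow a later design. The deposited table holds log2 signals, for which the authors ran RMA in Affymetrix Expression Console 1.1. RMA subtracts background, applies quantile normalization and summarises probes by median polish. Scanner images were not analysed here. Quantile normalization forces arrays to 1 distribution. Array values carry no depth, so the 3 arrays limit the precision.

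Columns were assigned by title, and 0 columns were left unmapped. Symbols came from the platform annotation. Mean, SD and range were computed per probe set with pandas 2.3.3 and numpy 2.4.6 in Python 3.11.15, after the code was tested on simulated data. No comparison was tested, because 3 arrays form 1 group. The spread was also moderated with limma 3.58.1 in R 4.3.3.

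Genes were eligible to be named if they were among the 8 markers, the 20 brightest, the 20 most variable above the reference level and 5 below it, the 10 steadiest bright genes or the extremes of a list, or were lens, muscle, sex-linked or complement genes. Not all are printed, and other named genes were picked once values were known. The members and lists were chosen with earlier results of these data known. Alternatives were leaving out each array, centring, other probe set rules, the 99th percentile or vomeronasal receptors as the reference, and a filter on dim probe sets.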

Additional observations from a re-analysis of the deposited data

How the results depend on the processing

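No paired analysis was possible because a single group was described and no test was made. Of 241 alternative values, 212 stayed within the set limits, 29 moved and 0 reversed. The limits were a set ratio for counts and, for each list, the SD of its pool medians. These SDs were wide for lists whose pools differed, so the muscle median of 5.81 without control replicate 1, instead of 6.57, stayed within them. Only the lens and muscle deviations could change sign, so 0 reversed says nothing of the other values. The count of probe sets with a range above 1 (206) was 74 without control replicate 1, 135 without control replicate 2 and 122 without control replicate 3. A range over fewer arrays cannot be larger, and why these counts differ from each other was not tested. With dim probe sets left out the count was 119. Lists with a median range above 1 (2) numbered 1 without control replicate 1 and 1 without control replicate 3. In alternatives added after the data were seen, genes with a range above 1 numbered 2 without control replicate 3 to 14 without either other array for lens, 5 without control replicate 1 to 19 for muscle, and 0 without control replicate 1 to 3 for pigment epithelium (1 without control replicate 2). Pool 1 lay below both others in 7 cases instead of 11 with 1 probe set per gene. Pool 3 lay above both others in 2 cases instead of 1 with each array centred on its median, and in 14 with probe sets naming several genes included; the cause was not tested. Probe sets above the reference level fell from 13763 to 8983 with the 99th percentile of olfactory receptors. The median signal of the lens list was 8.28 instead of 6.49 with dim members left out, which removes its dimmest genes. For the other lists, 14 of 143 values of the median signal moved. The pool that differs has no value with an array left out, because it needs 3 pools. Signal close to the reference level limits what can be said of dim genes.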

Other observations

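Of 7 connective tissue genes, 6 were highest in pool 1, against 30.5% of all genes, and 2 had a range above 1, against 0.843%. Dcn, or decorin, a small proteoglycan of collagen fibrils, measured 8.21, 6.48 and 6.55 in pools 1, 2 and 3. Ogn, or osteoglycin, of the same family, measured 6.75, 7.49 and 5.59. Pool 1 stood above the other pools for Dcn, whereas pool 3 stood below the others for Ogn. Immediate early genes, which neurons and glia switch on within minutes of stimulation, lay above the reference level in 13 of 16 cases, against 59.6% of all genes. Btg2 measured 8.96, 8.90 and 9.02 and Fos 6.53, 6.57 and 6.32.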
